A study of Mus musculus with 6 samples.

Results

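The insulin-like growth factor 1 (IGF1) axis was followed in mouse knee chondrocytes through 10 genes, namely the ligand gene *Igf1*, the receptor genes *Igf1r* and *Igf2r*, the binding protein genes *Igfbp2*, *Igfbp3*, *Igfbp4*, *Igfbp5*, *Igfbp6* and *Igfbp7*, and the protease gene *Pappa*. They were chosen by name as the main extracellular genes of the axis, and all 10 were found by Ensembl identifier among the 22032 genes of the deposited table. RNA-seq was available for 3 embryonic and 3 adult samples. The embryonic cells came from mice at embryonic day 16.5 (the deposited labels write the unit as weeks), and the adult cells from 2 month old male B6 animals. At both stages the cells were taken from cartilage of the knee, freed by digestion and sorted as negative for the lineage markers and alkaline phosphatase (ALP) and positive for BMPR1B, a bone morphogenetic protein receptor. No treatment or engineered allele is named for either group, the strain and sex of the embryos are not given, and how many animals went into a sample is not stated. Values are TPM (a transcript level per length, scaled to a common total), which adds up to 1000000 in every sample. TPM does not carry the number of reads behind a value. The read summary that accompanies the study lists fewer reads for each adult than for each embryonic sample, and the part of depth in the results was not tested. Errors and p-values here rest on the scatter of 3 samples within each stage.

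IGF1 is a secreted growth factor that acts in growth cartilage both as a hormone from the liver and as a local product, and it signals through the tyrosine kinase receptor IGF1R. IGF2R, which is also the receptor for mannose 6-phosphate, carries IGF2 into the cell for breakdown. The IGF binding proteins hold IGFs outside the cell, where they can keep the ligand from its receptor or store it in the matrix, and proteases such as pappalysin-1, the product of *Pappa*, cut binding proteins and release the ligand.

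The identity of the sorted cells was checked against 12 chondrocyte markers. All 12 were at or above a mean of 1 TPM in embryonic cells and 11 in the adult samples, where *Matn1* was listed at 0 in each. The summed level of these markers was 28650 to 30280 TPM in embryonic and 10180 to 13280 TPM in adult cells. Of the 12, 9 were called lower in adult cells and 2 higher (*Sox9* and *Comp*), and *Acan* was not called. The largest part of the sum was *Col2a1*, with a mean of 14690 TPM in embryonic and 4706 TPM in adult cells. The summed markers of muscle, red blood cells, endothelium and skin stayed at or under 61.0 TPM in every sample. Leukocyte markers summed to 5.34 to 13.7 TPM in embryonic and 19.0 to 103 TPM in adult cells, and 2 of the 3 tested were called higher and 0 lower. These were *Cd68*, a macrophage gene at 4.22 to 12.6 TPM in embryonic and 17.2 to 33.3 TPM in adult cells, and *S100a8*, a neutrophil gene listed at 0 in 4 samples and at 36.4 and 41.5 TPM in adult replicates 1 and 3. *Cd3e* was at 0 in all 6 samples and *Ptprc* at 2.29 TPM or less. Markers of the synovial lining and fat cells summed to 134 to 192 TPM in embryonic and 30.1 to 52.2 TPM in adult cells, with 1 of 3 tested called higher (*Clic5*) and 1 lower (*Cdh11*). In that list *Adipoq* and *Cfd* were at 0 in all samples and *Fabp4* was at 13.9 to 47.4 TPM. Tendon and fibroblast markers summed to 5269 to 5804 TPM in embryonic and 431 to 698 TPM in adult cells, and 4 of the 7 passed the test as lower in adult cells and 0 as higher. Osteoblast markers summed to 5649 to 6573 TPM in embryonic and 2895 to 5430 TPM in adult cells. Of the 7, 3 were higher (*Bglap*, *Ibsp* and *Spp1*) and 2 lower (*Dmp1* and *Col1a1*). Most of the embryonic sum was *Col1a1*, at a mean of 5462 TPM against 470 TPM in adult cells. *Ibsp* went from a mean of 11.6 to 287 TPM and *Spp1* from 610 to 3417 TPM, so the sum hides opposite changes. In such bulk samples, fewer cells of a type and less RNA per cell cannot be told apart, and the part of these other cell types in the results that follow was not tested.

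The 2 stages were compared with limma on log2(TPM + 1) over the 13125 genes whose mean reached 1 TPM, and a gene was called at a Benjamini-Hochberg adjusted p under 0.05 over all of them. Of the 10 genes of the axis, all of which were tested, 5 fell in the adult cells (*Igf1*, *Igf2r*, *Igfbp2*, *Igfbp3* and *Igfbp4*), 3 rose (*Igfbp6*, *Igfbp7* and *Pappa*) and 2 did not pass the threshold (*Igf1r* and *Igfbp5*). Over all genes tested, 21.4% were called lower and 23.9% higher. The values of the stages did not overlap for 8 of the 10 genes, against 56.5% of all genes tested, so separation of the stages was common across the table. The median log2 fold change, adult minus embryonic, was -1.28 over the 10 genes and 0.16 over all genes tested. Because 1 is added to each TPM, changes of genes at a few TPM come out too small on this scale.

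**Figure D1:**
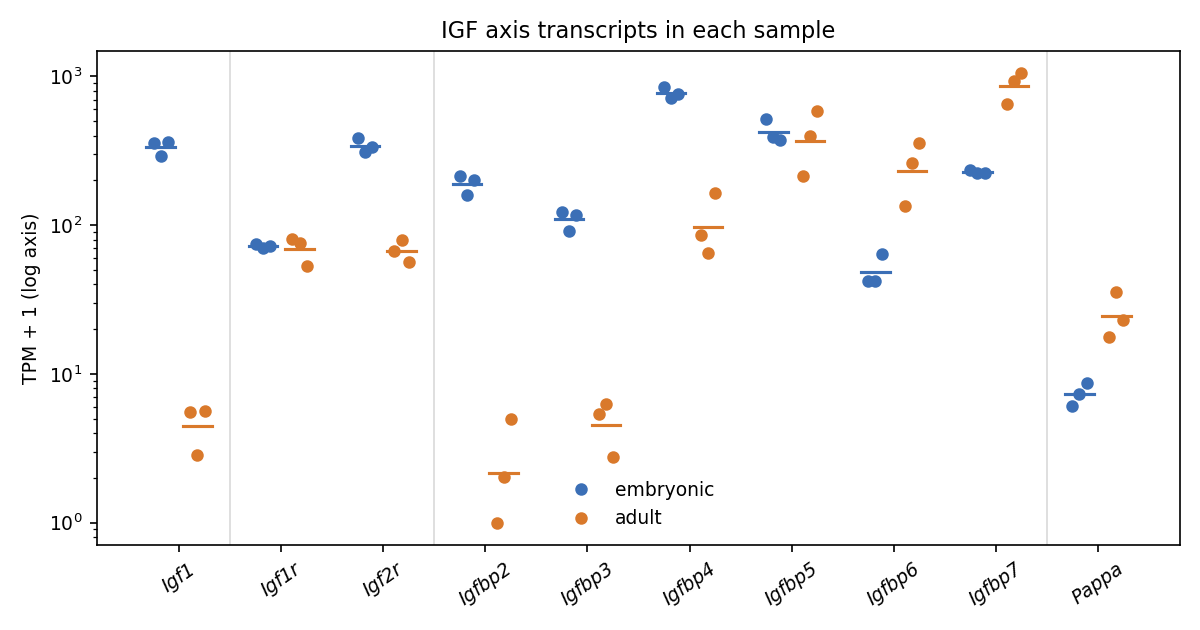
Level of each gene in each sample, as TPM + 1 on a log axis, with embryonic samples in blue, adult samples in orange and a bar at the mean of log2(TPM + 1) of each stage. Adult points of *Igf1*, *Igfbp2* and *Igfbp3* lie at or below a TPM of 5.29, and the stages overlap in *Igf1r* and *Igfbp5* alone.

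The ligand gene *Igf1* lies at chr10:87858265-87937042 of GRCm38. It was at 357, 293 and 362 TPM in embryonic cells and at 4.53, 1.84 and 4.62 TPM in adult cells. Every adult value lay far under every embryonic one, and the mean TPM was 92.0 times higher in the embryonic cells. On the log2(TPM + 1) scale *Igf1* went from 8.40 ± 0.17 (SD, n = 3) to 2.16 ± 0.56 (SD, n = 3), a difference of -6.24 (SE 0.283, limma adjusted p = 1.27e-06). Only 36 of the 13125 genes tested had a larger fall. Among all genes tested, the mean level of *Igf1* stood above 96.4% in embryonic and above 17.4% in the adult cells. Between the same samples the summed tendon and fibroblast markers fell, while the summed leukocyte markers were higher in the adult samples. Of the macrophage genes in the leukocyte list, *Cd68* was called higher and *Lyz2* was not called (limma adjusted p = 0.0642). *Csf1r*, *Adgre1* and *Tyrobp* were below the mean of 1 TPM needed for a test. Neither group of cells was tested as a source of the *Igf1* values.

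The second ligand gene, *Igf2*, encodes the growth factor that predominates before birth. It was at 12000, 11540 and 12130 TPM in embryonic cells and at 26.5, 56.8 and 37.6 TPM in adult cells, a difference of -8.24 on the log2(TPM + 1) scale (SE 0.233, limma adjusted p = 1.1e-07). Both ligand transcripts together came to between 11830 and 12490 TPM in embryonic cells and between 31.1 and 58.6 TPM in adult cells. *Igf2* exceeded *Igf1* in every sample, by 33.6 to 39.4 times at the embryonic stage and by 5.85, 30.9 and 8.13 times in the adult samples. In adult replicate 2, which had the highest of these adult ratios, *Igf1* was lowest and *Igf2* highest of the adult samples. The insulin genes *Ins1* and *Ins2* were listed at 0 in all 6 samples.

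Among the receptors, *Igf1r*, the signaling receptor at chr7:67952827-68233668, was at 74.1, 69.2 and 71.8 TPM in embryonic cells and at 79.3, 74.6 and 52.5 TPM in adult cells. A pair of adult samples lay above all embryonic ones and the other below them. The difference was -0.08 on the log2(TPM + 1) scale (95% interval -0.50 to 0.34, limma adjusted p = 0.742), and its sign turned under another scaling and without adult replicate 3. *Insr*, the gene of the insulin receptor, was at 13.3 to 17.1 TPM in embryonic and 8.72 to 12.8 TPM in adult cells and did not pass the threshold either (difference -0.44, 95% interval -1.09 to 0.21, limma adjusted p = 0.241).

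*Igf2r*, the clearance receptor at chr17:12682406-12769664, was at 383, 308 and 336 TPM in embryonic cells and at 66.0, 78.0 and 55.1 TPM in adult cells. The stages were well apart, and the fall was 2.36 on the log2(TPM + 1) scale (SE 0.162, limma adjusted p = 1.34e-05). Within each sample, which removes any scaling between samples, there were 5.17, 4.45 and 4.68 *Igf2r* transcripts for each *Igf1r* transcript at the embryonic stage and 0.832, 1.05 and 1.05 in the adult cells. The receptor transcripts were thus close to parity in all adult samples. *Airn*, the antisense transcript through which *Igf2r* is imprinted, overlaps the span of *Igf2r* on the other strand. It shares 0 annotated exonic bases with *Igf2r*, and the methods do not say that strand was used in counting. *Airn* was listed at 42.5 to 46.5 TPM in embryonic and 11.6 to 26.8 TPM in adult cells.

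The binding proteins fell into genes that were lower, level and higher in adult cells. *Igfbp4*, at chr11:99041244-99054392, encodes a binding protein that is cut by pappalysin-1, and it was the most abundant of the 10 transcripts before birth. It was at 850, 719 and 760 TPM in embryonic cells and at 85.3, 64.3 and 163 TPM in adult cells. The highest adult value, that of replicate 3, was still well below the lowest embryonic one, and the difference was -2.99 on the log2(TPM + 1) scale (SE 0.289, limma adjusted p = 7.98e-05).

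*Igfbp3*, at chr11:7206086-7213923, encodes the main carrier of IGFs in blood. It was at 123, 90.2 and 116 TPM in embryonic cells and at 4.33, 5.29 and 1.78 TPM in adult cells, a difference of -4.59 (SE 0.333, limma adjusted p = 1.75e-05). Its neighbour *Igfbp1*, a liver-made binding protein gene whose annotated end lies 3539 bases away, was listed at 0 in 5 samples and at 0.233 TPM in adult replicate 2.

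*Igfbp2*, at chr1:72824503-72852474, encodes a binding protein that also contacts integrins. It was at 212, 160 and 200 TPM in embryonic cells and at 0, 1.01 and 3.96 TPM in adult cells. With 1 adult sample listed at 0, the size of the fall depends on the pseudocount. The difference was -6.46 with a pseudocount of 1 (SE 0.508, limma adjusted p = 2.68e-05) and -7.945 with a pseudocount of 0.1. Leaving out the sample at 0, adult replicate 1, made the fall smaller (-5.91). Dropping adult replicate 3, the highest of the adult values, made it larger (-7.07). Over the whole table, 6 values of 0 stood in a sample while both other samples of its stage were at 20 TPM or more. Whether a value of 0 means an absent transcript cannot be told from TPM.

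*Igfbp5*, at chr1:72857932-72874884, encodes a binding protein with affinity for the extracellular matrix and for bone mineral. It faces *Igfbp2* tail to tail on the opposite strand, with 5457 bases between the annotated ends. It was at 514, 389 and 375 TPM in embryonic cells and at 213, 396 and 587 TPM in adult cells. The adult values ran from below to above all embryonic ones, and the difference was -0.20 (95% interval -0.92 to 0.53, limma adjusted p = 0.635). Without adult replicate 1 it was 0.19 in the other direction. These neighbours thus kept no fixed proportion. For each 1 TPM of *Igfbp5* there was 0.412, 0.411 and 0.532 TPM of *Igfbp2* in the embryonic samples, and 0, 0.00256 and 0.00674 TPM in adult cells.

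*Igfbp7*, at chr5:77349240-77408041, encodes a related secreted protein that binds IGFs only weakly. It was at 235, 225 and 225 TPM in the embryonic samples, the narrowest spread of the 10 genes on the log2 scale, and at 651, 928 and 1051 TPM in adult cells. All adult values were above all embryonic ones, and the rise was 1.91 (SE 0.174, limma adjusted p = 5.94e-05). Its annotated exons share 85 bases, or 7.03% of their length, with those of *Polr2b* on the other strand. *Polr2b* was at 75.1 to 124 TPM in embryonic and 151 to 165 TPM in adult cells, and the methods do not say that strand was used in counting, so reads from those bases cannot be assigned to either gene.

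*Igfbp6*, at chr15:102144362-102149511, encodes a binding protein that prefers IGF2 to IGF1. It was at 41.3, 41.2 and 62.5 TPM in embryonic cells and at 133, 259 and 357 TPM in adult cells. The lowest adult value was above the highest embryonic one, and the rise was 2.26 (SE 0.335, limma adjusted p = 8.24e-04), the largest of the 3 genes that rose.

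Among the adult samples, replicate 1 had the lowest and replicate 3 the highest level of *Igfbp5*, *Igfbp6* and *Igfbp7* alike. The summed osteoblast markers, at 2895, 4379 and 5430 TPM, and the summed tendon and fibroblast markers, at 431, 521 and 698 TPM, took the same order over these 3 samples. The summed chondrocyte markers, at 13280, 11730 and 10180 TPM, and the summed synovial and fat cell markers, at 52.2, 32.6 and 30.1 TPM, took the reverse order. The summed leukocyte markers, at 103, 19.0 and 78.3 TPM, took neither order. Sums weigh the highest genes most, and single markers did not all follow them. No single chondrocyte marker fell steadily, with *Col2a1* at 7084, 3166 and 3869 TPM and *Acan* at 1265, 2672 and 1756 TPM. *Fabp4* followed the order of its sum and *Clic5*, at 10.4, 4.42 and 11.4 TPM, did not. *Spp1* followed the osteoblast order and *Ibsp*, at 316, 235 and 308 TPM, did not. Of the tendon and fibroblast markers, *Col3a1* alone followed the order of its sum, at 148, 312 and 396 TPM. The others did not, with *Pdgfra* at 219, 145 and 258 TPM. Whether the mix of cells moved these binding protein values was not tested.

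The stretches just before the RefSeq start of 4 binding protein genes are shown to set beside each other 2 genes that fell and 2 that rose, as 100 bases read 5′ to 3′ on the strand of the gene from build GRCm38.p6. Capitals mark a match to TATAAA or GGGCGG on either strand, motifs that cannot overlap each other because they share no letter. None of the 4 stretches touches an annotated exon of its gene. *Igfbp2* is read from the plus strand at chr1:72824380-72824479, *Igfbp4* from the plus strand at chr11:99041144-99041243, *Igfbp6* from the plus strand at chr15:102144086-102144185 and *Igfbp7* from the minus strand at chr5:77408046-77408145.
Igfbp2 (lower in adult): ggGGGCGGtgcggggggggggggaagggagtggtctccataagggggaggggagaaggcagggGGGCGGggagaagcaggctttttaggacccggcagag
Igfbp4 (lower in adult): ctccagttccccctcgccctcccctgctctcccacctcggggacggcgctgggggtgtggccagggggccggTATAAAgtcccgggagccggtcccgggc
Igfbp6 (higher in adult): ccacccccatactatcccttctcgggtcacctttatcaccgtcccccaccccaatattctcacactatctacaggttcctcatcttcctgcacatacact
Igfbp7 (higher in adult): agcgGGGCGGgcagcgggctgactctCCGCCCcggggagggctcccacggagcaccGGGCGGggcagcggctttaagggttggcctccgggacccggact

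A RefSeq start was found for 9 of the 10 genes, with 10 windows in all because *Igfbp2* has 2. The stretch of *Igfbp2* shown is from the upstream start. Within the 250 bases before a start, with either strand counted, TATAAA occurred in 2 of the 9 and in 12.4% of all 32851 such windows in the RefSeq table. In *Igfbp4* it begins 28 bases before the start on the strand of the gene. In *Igfbp6* it lies on the opposite strand, outside the stretch shown. GGGCGG occurred in 4 of the 9, *Igf1r*, *Igf2r*, *Igfbp2* and *Igfbp7*, and in 32.7% of all windows. In *Igfbp2* it was found before the upstream start and not before the other. Counted on either strand, each motif was therefore present in both a gene that fell and a gene that rose.

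Taken as a pool, the 6 binding protein transcripts summed to 1975, 1623 and 1738 TPM in embryonic cells and to 1086, 1654 and 2164 TPM in adult cells. The adult sums spanned the embryonic ones, while the make-up of the pool differed between the stages. *Igfbp4* held 43.1%, 44.3% and 43.7% of the pool in embryonic cells and 7.85%, 3.89% and 7.52% in the adult samples. *Igfbp7* held 11.9%, 13.8% and 12.9% before birth and 59.9%, 56.1% and 48.6% in adult cells, where it led in every sample. *Igfbp6* went from between 2.09% and 3.60% to between 12.2% and 16.5%. *Igfbp2* went from between 9.83% and 11.5% to at most 0.183%, and *Igfbp3* from between 5.56% and 6.65% to at most 0.399%. *Igfbp5* held 21.6% to 26.0% and 19.6% to 27.1%, so its share overlapped between the stages. When *Igfbp7* was left out of the pool, *Igfbp4* led the embryonic pool with a mean of 50.2%, and *Igfbp5* led the adult pool with a mean of 52.1%. These shares are ratios within a sample and do not depend on how samples are scaled to each other.

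**Figure D2:**
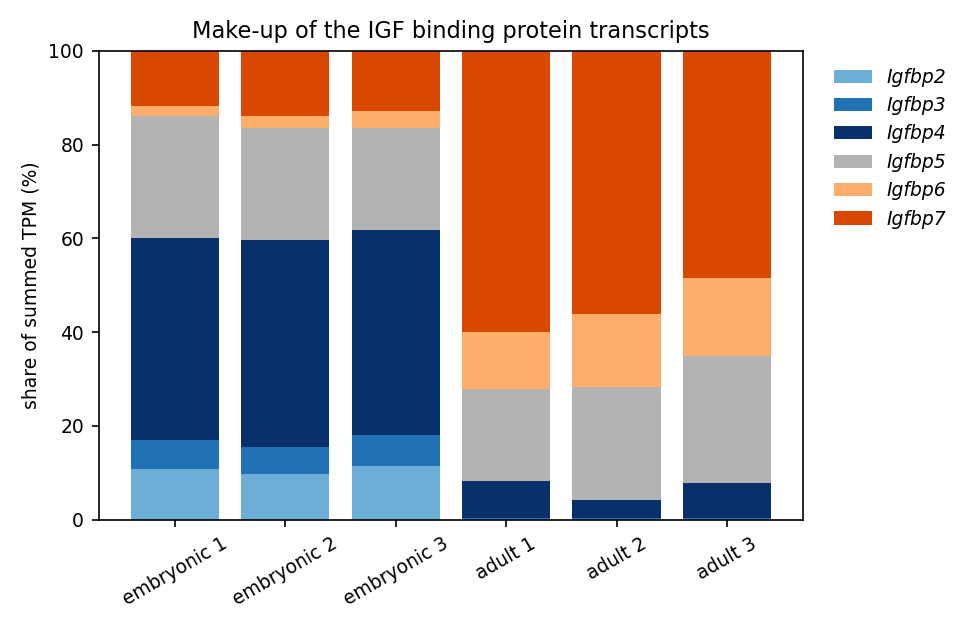
Share of each binding protein gene in the summed TPM of the 6 genes, as stacked bars in percent for each sample. *Igfbp4* takes 43.1% to 44.3% of each embryonic bar and *Igfbp7* takes 48.6% to 59.9% of each adult bar, while *Igfbp5* in grey takes 19.6% to 27.1% of all bars.

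The amount of local ligand transcript against binding protein transcript differed between the stages. For every 100 TPM of the 6 binding proteins there were 18.1, 18.0 and 20.8 TPM of *Igf1* in embryonic cells and 0.417, 0.111 and 0.214 TPM in adult cells. With *Igf2* added, both ligands together were 6.26 to 7.29 times the binding protein pool before birth and 0.0195 to 0.0354 times the pool in adult cells. The pool of all 6 did not separate the stages, whereas both ligand transcripts did. Its largest adult part was *Igfbp7*, whose protein binds IGFs only weakly. With *Igfbp7* left out, every adult sum of the other binding protein transcripts lay below every embryonic sum.

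*Pappa*, at chr4:65124174-65357509, was the least abundant of the 10 transcripts before birth, at 5.04, 6.33 and 7.68 TPM. In the adult samples it was at 16.7, 34.4 and 22.1 TPM, all above the embryonic values, a rise of 1.74 (SE 0.343, limma adjusted p = 0.0036). *Pappa2*, the paralog that cuts mainly the binding proteins encoded by *Igfbp3* and *Igfbp5*, was at 60.4, 62.8 and 82.4 TPM in embryonic cells and at 10.7, 2.26 and 22.8 TPM in adult cells. It fell by 2.83 (limma adjusted p = 0.0054). With adult replicate 2 left out the difference was -2.05, and with adult replicate 3 left out it was -3.48. There was 0.0834 to 0.101 TPM of *Pappa* for each 1 TPM of *Pappa2* in embryonic cells and 1.57, 15.2 and 0.970 TPM in adult cells, with adult replicate 2 far above the other two.

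The stanniocalcins *Stc1* and *Stc2*, which encode secreted inhibitors of the pappalysins, moved the opposite way to *Pappa*. *Stc1* was at 49.7, 52.5 and 46.2 TPM in embryonic cells and at 0, 0.838 and 2.23 TPM in adult cells (difference -4.80, limma adjusted p = 6.74e-05, and -6.36 with a pseudocount of 0.1). *Stc2* was at 28.8, 41.1 and 35.7 TPM and at 16.4, 11.0 and 11.3 TPM (difference -1.39, limma adjusted p = 0.00279). Of 2 further proteases that can cut binding proteins, *Htra1*, a secreted serine protease of cartilage matrix, rose by 1.17 (limma adjusted p = 3.88e-04) from between 155 and 215 TPM to between 375 and 456 TPM. *Adam12*, a membrane metalloprotease, fell by 3.04 (limma adjusted p = 0.00139) from between 107 and 145 TPM to between 5.59 and 33.4 TPM. The *Adam12* difference became -3.64 when adult replicate 1 was left out and -2.45 when adult replicate 2 was.

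**Figure D3:**
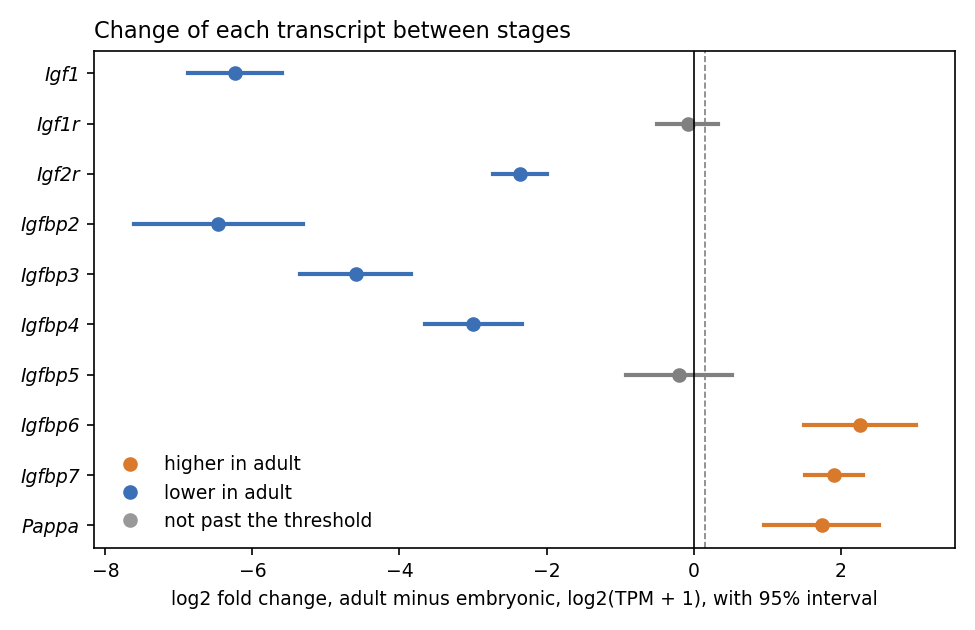
Log2 fold change of each gene, adult minus embryonic, on the log2(TPM + 1) scale, with limma's 95% interval as the line and the median of all genes tested (0.16) as the dashed line. Intervals of *Igf1r* and *Igfbp5* in grey cross 0, the 5 blue ones lie wholly below it and the 3 orange ones wholly above it.

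Ordered by mean TPM, a level per transcript length, the embryonic cells had *Igfbp4* first at 777 TPM, then *Igfbp5* (426), *Igf2r* (342), *Igf1* (337), *Igfbp7* (228), *Igfbp2* (190), *Igfbp3* (109), *Igf1r* (71.7), *Igfbp6* (48.4) and *Pappa* (6.35). The sample ranges of neighbours in this order overlapped between *Igfbp5* and *Igf2r* and between *Igf2r* and *Igf1*, and were apart for all other neighbours. The adult cells had *Igfbp7* first at 877 TPM, then *Igfbp5* (399), *Igfbp6* (250), *Igfbp4* (104), *Igf1r* (68.8), *Igf2r* (66.4), *Pappa* (24.4), *Igfbp3* (3.80), *Igf1* (3.67) and *Igfbp2* (1.66). Here *Igfbp7* stood apart from *Igfbp5*, *Igf2r* from *Pappa*, and *Pappa* from *Igfbp3*, and the ranges of all other neighbours overlapped. The order was therefore less certain in the adult cells, where the spread between samples was wider for each of the 10 genes on the log2 scale.

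Other genes of the pathway were read from a list of 51 genes outside the 10. The list holds downstream and regulatory genes and also further ligands, carriers, receptors, proteases and inhibitors. Of these, 43 were tested, with 7 higher, 12 lower and 24 not past the threshold. These are 16.3% and 27.9% of the genes tested in the list, against 23.9% and 21.4% of all genes tested. The 12 lower genes include *Igf2* and 4 of the 5 tested proteases and inhibitors, so these shares are not those of downstream genes alone. The median log2 fold change was -0.22 in the list.

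Among 9 tested genes listed as receptor adaptors or their partners, 0 rose and 3 fell. The 3 are 33.3% of the 9, against 21.4% of all genes tested called lower and 23.9% called higher. *Grb10*, an imprinted adaptor that restrains IGF1R and insulin receptor signaling, went from between 560 and 707 TPM to between 102 and 126 TPM (difference -2.48, SE 0.142, limma adjusted p = 4.66e-06). *Gab1*, a docking protein, fell by 1.22 (limma adjusted p = 0.0043) and *Irs2*, an insulin receptor substrate, by 0.74 (limma adjusted p = 0.0154). The *Irs2* call was lost without embryonic replicate 1 (adjusted p = 0.054) and without embryonic replicate 3 (adjusted p = 0.0666), and its adjusted p ran from 0.00551 to 0.0666 across alternatives.

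Of 19 PI3K, AKT and mTOR genes, 5 were higher, 3 lower and 11 not past the threshold. The shares were 26.3% higher and 15.8% lower, against 23.9% and 21.4% of all genes tested. *Mtor*, encoding the growth-controlling kinase, was at 11.7 to 14.4 TPM in embryonic and 36.3 to 40.8 TPM in adult cells (difference 1.51, SE 0.217, limma adjusted p = 7.02e-04). *Pik3r2*, a regulatory subunit gene of PI3K, rose by 0.77 (limma adjusted p = 0.00762), and *Phlpp1*, encoding a phosphatase of AKT, fell by 1.35 (limma adjusted p = 0.00193). *Rptor*, which encodes a partner of mTOR, was 0.71 higher (limma adjusted p = 0.0321), and this call was lost under 9 of 15 alternatives (adjusted p 0.016 to 0.106 over them).

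*Foxo1*, encoding a transcription factor that IGF signaling keeps out of the nucleus, rose from between 15.9 and 20.2 TPM to between 47.8 and 52.3 TPM (difference 1.43, SE 0.194, limma adjusted p = 4.94e-04), and the other two tested FoxO genes did not pass the threshold. *Ghr*, the growth hormone receptor gene, was at 62.0, 64.1 and 71.5 TPM in embryonic cells and at 30.9, 23.6 and 16.2 TPM in adult cells (difference -1.49, SE 0.243, limma adjusted p = 0.00138). It was the 1 gene called among the 5 of the growth hormone side. *Jak2* was called under 3 of 15 alternatives (limma adjusted p 0.0171 to 0.171 over them) and *Socs2* under 2 (0.00613 to 0.221).

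**Figure D4:**
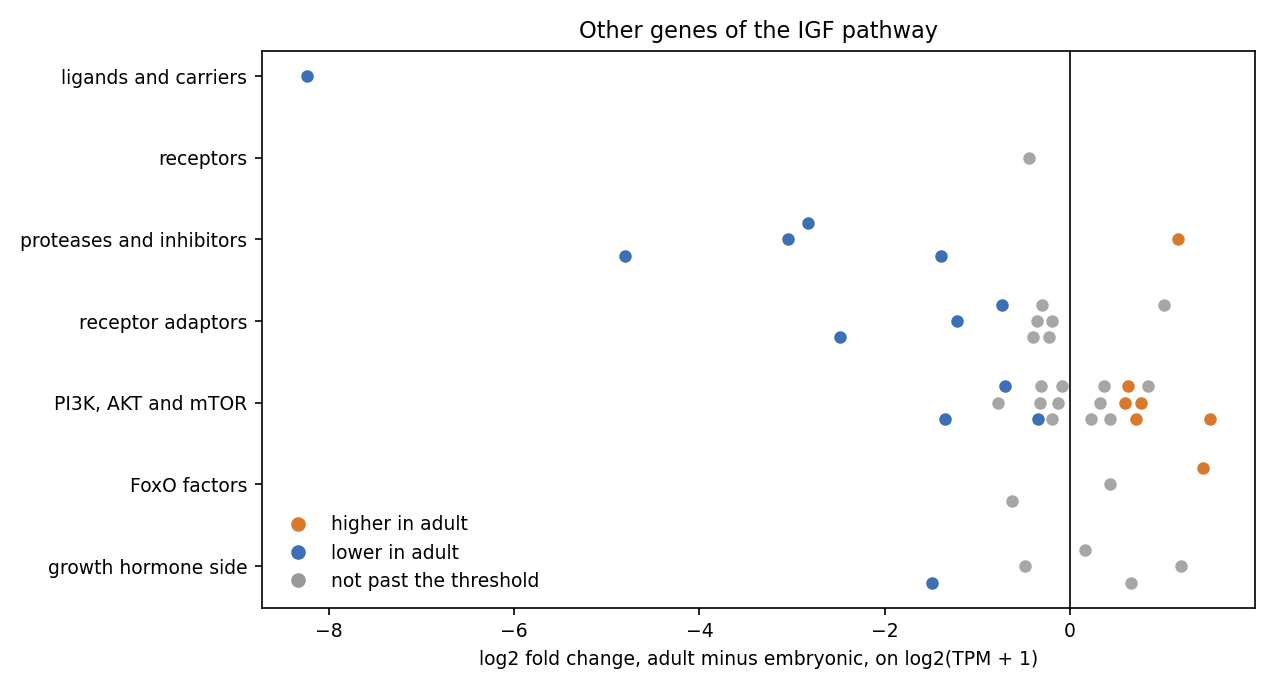
Log2 fold change, adult minus embryonic, of the 43 tested pathway genes outside the 10, on the log2(TPM + 1) scale and grouped by role, with called genes in orange (7 higher) and blue (12 lower) and the rest in grey. *Igf2* lies alone at -8.24 and the PI3K, AKT and mTOR genes lie between -1.35 and 1.51.

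The profiles most like those of the genes at the ends of the range were sought over the 6 samples, by the root mean square difference of log2(TPM + 1) after centring each gene on its mean. For *Igfbp2*, the closest were *Basp1* (0.17), *Postn* (0.35) and *Hist1h2bb* (0.50). *Basp1* was at 199, 149 and 205 TPM in embryonic and at 0, 1.53 and 4.998 TPM in adult cells, and *Hist1h2bb* belongs to a family of near-identical histone genes whose single values are uncertain. For *Igfbp6*, the closest were *Anks1b* (0.22), *Hs3st1* (0.22) and *Plxdc1* (0.24). In embryonic cells *Anks1b* was at 0.0242, 0 and 0.466 TPM and *Plxdc1* at 0.0705, 0.144 and 0.859 TPM. At such levels the pseudocount of 1 weighs on the shape of the profile. *Hs3st1*, a heparan sulfate sulfotransferase gene, was at 5.90, 4.70 and 11.7 TPM and at 17.1, 50.2 and 58.2 TPM. The 6 samples share 2 stages, so a gene with a stage difference of similar size comes out as alike.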

How the data were processed

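Single-end reads of 3 embryonic and 3 adult samples were mapped to GRCm38 by the authors, who quantified genes as TPM with RSEM. The deposited values are log2(TPM + 1). The RSEM version, gene filters and use of strand are not given in the sources used here. All 6 columns were used and taken back to TPM where stated.

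Genes were named from GENCODE M21, and 21902 of 22032 identifiers had a symbol. Stages were compared with limma 3.58.1 in R 4.3.3 (eBayes with trend) on log2(TPM + 1), with 1 as pseudocount, keeping genes whose mean reached 1 TPM, without further terms. EBSeq, named in the methods, was not used. Tables and figures used Python 3.11.15, pandas 2.3.3 and matplotlib 3.10.9. Alternatives were another pseudocount, filter, scaling, variance model or threshold, a replicate block and each sample left out.

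The 10 genes, the pathway and marker lists and the tests were chosen with earlier results of these data known. Named genes are the 10, up to 4 called genes per pathway list, *Igf2*, *Insr*, *Ghr*, *Stc1*, *Stc2* and *Pappa2*, the 3 closest profiles at either end, and neighbouring or overlapping genes. *Ins1*, *Ins2* and single marker genes were named after their values were seen. Samples are described as biological replicates, with no statement on pooling of animals.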

Additional observations from a re-analysis of the deposited data

How the results depend on the processing

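The calls of all 8 called genes of the axis, 3 higher and 5 lower, kept their direction and side of the threshold under each of the 16 alternatives. *Igf1r*, not called, turned to 0.0155 when TPM was rescaled without the 20 highest genes and ran from -0.19 to 0.10 when each sample was left out (0.10 without adult replicate 3), and *Igfbp5*, not called, ran from -0.54 to 0.19 (0.19 without adult replicate 1). A threshold of 0.01 left 3718 of 5949 genes called and 4 of the 7 pathway genes called higher. Leaving out each sample in turn gave 4603 to 5550 genes called, and 5 to 7 pathway genes higher and 10 to 12 lower. Median-of-ratios scaling moved the median log2 fold change of all genes from 0.16 to 0.03, with 2613 genes called higher and 3238 lower against 3140 and 2809, and 5 and 15 of the pathway genes. Rescaling without the 20 highest genes moved it to 0.25, with 3498 higher and 2518 lower, and 7 and 10 of the pathway genes. Relative to the median of 0.16 *Igf1r* stood at -0.24 and *Igfbp5* at -0.35. The replicate numbers are shared by the labels of both stages, but deviations of same-numbered samples did not correlate (r from -0.0223 to 0.0156 over all pairs, 0 of 6 samples closest to its own number). With the number as a replicate block, 5430 genes were called, and the counts for the axis were again 3 higher and 5 lower. TPM cannot be turned back into read counts, so no counting interval is given for the lowest adult values.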
